A study of Mus musculus with 3 samples.

Results

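Cathepsins and cystatin C are described here across brain myeloid cells sorted from mice that express either splice form of human CD33. The 10 genes (Ctsa, Ctsb, Ctsc, Ctsd, Ctsf, Ctsh, Ctsl, Ctss, Ctsz and Cst3) were listed by name, and each was found in all 3 count tables, among 15338 genes that had a row in any of them. Each table was a single 10x Chromium 3′ library of brain cells from mice aged 8 weeks. The hCD33m library came from female mice carrying the short isoform of human CD33, the hCD33M library from male mice carrying the long isoform, and the Control library from wild type male mice. Both transgenes lie behind a floxed stop cassette in Rosa26 and were switched on by Cx3cr1-Cre, which is a knock-in at the Cx3cr1 locus and acts in microglia and in other Cx3cr1-expressing macrophages and monocytes. With 1 library for each genotype, differences between genotypes have no replicate check, and in hCD33m genotype and sex cannot be told apart. All brains were perfused and kept cold with inhibitors of transcription and translation (Actinomycin D, Triptolide and Anisomycin), and cells positive for CD11b, CD45 and Cx3cr1 were sorted.

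Cathepsins are proteases of the endolysosome. Most are cysteine proteases of the papain family, while cathepsin D is an aspartic protease and cathepsin A a serine carboxypeptidase. They are made as inactive proenzymes, reach the lysosome largely on mannose 6-phosphate receptors and mature at acidic pH. Cystatin C, the product of Cst3, is a secreted inhibitor that binds papain-type cathepsins tightly and is abundant in cerebrospinal fluid. Microglia are known as a rich source of both, and macrophages use cathepsin S in particular to cut the invariant chain, CD74, from MHC class II molecules.

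The sort yielded 5612 hCD33m, 5046 hCD33M and 3412 Control cells after the study's stated limits on genes, molecules and mitochondrial share, with median depths of 5137, 5078.5 and 5436.5 unique molecular identifiers (UMIs, 1 for each captured transcript). Cells were clustered without the 10 genes, and also without sex genes (such as Xist and Tsix) and early response genes (such as Fos and Fosb). Clusters carrying 10 or 11 of 11 microglial markers (among them P2ry12, Tmem119 and Sall1) and not led by markers of another type were called microglia-like, and held 4838 hCD33m, 4489 hCD33M and 2953 Control cells. A cluster led by Pf4, Mrc1, Ms4a7 and MHC class II genes was called border-associated macrophage-like (BAM-like), with 121, 99 and 82 cells in the same order. A cluster led by Plac8, S100a4 and Ly6c2 was called monocyte-like, with 28, 23 and 19 cells. The names were given from marker lists, so sums over the same lists describe the clusters and do not test the names. The BAM list of 10 genes summed to between 5160 and 6228 CPM in BAM-like cells, against 253 to 307 CPM in microglia-like cells. The monocyte list of 10 genes summed to between 7535 and 10273 CPM in monocyte-like cells, against 12.3 to 17.4 CPM in microglia-like cells. The remaining 1418 cells, in clusters far below the depth of their library (median 1283.5 UMIs), were left unnamed. Between 5 and 10 cell barcodes were shared by any pair of libraries.

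The BAM-like cells were not uniform. Of 302 such cells, 165 gave at least 1% of their UMIs to microglial markers and had a median of 13190 UMIs, while 137 gave less than 1% and had a median of 5430 UMIs, with 27 cells in a band around 1% that began at 0.75%. Over all BAM-like cells, the 11 microglial markers stood at a median of 60.8% (hCD33m), 50.1% (hCD33M) and 62.8% (Control) of their microglia-like level, and in the cells under 1% at 11.7%, 15.3% and 13.6%. In monocyte-like cells the same median was 11.8%, 8.99% and 15.7%, and 2.90%, 2.78% and 1.10% in the 65 of 70 cells under 1%. Values for BAM-like and monocyte-like cells are therefore given for all cells and for the cells under 1%. No doublets were removed beyond the study's upper limit on genes. Whether microglial RNA in these cells came from doublets, free RNA or the cells themselves was not tested.

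The 10 genes lie on 7 chromosomes of the mouse genome (GRCm38, GENCODE annotation vM21). Cst3 (chr2:148871722-148875692), Ctsa (chr2:164832873-164841032) and Ctsz (chr2:174427493-174439039) share chromosome 2, and Ctsc (chr7:88278085-88310888) and Ctsd (chr7:142375911-142388038) share chromosome 7. Ctss lies at chr3:95526786-95556403, Ctsh at chr9:90054152-90076089, Ctsl at chr13:64359337-64370890, Ctsb at chr14:63122462-63145923 and Ctsf at chr19:4855130-4860918. Cst3 has 3 exons, whereas the longest annotated transcripts of the cathepsins have between 4 and 16. An annotated gene on the same strand overlaps Ctsd (Gm49369), Ctsl (Gm49230) and Ctss (Hmgb1-ps5), so reads could be split between these genes and the members.

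Promoters of 8 members were found in the RefSeq promoter table (GRCm38.p6, 250 bases before and 50 from the start site on). The sequence CACGTG, an E-box core that the lysosomal regulators of the TFEB family can bind, was searched on both strands and was present in the promoters of Ctsa, Ctsd, Ctsf and Ctsl, against 7.15% of 32851 promoters in the table. The core of the interferon-stimulated response element (GAAA, any 2 bases, then GAAA, on either strand) was present in Ctss alone of the members, against 3.44% of promoters. GAGGAAGT, a core of sites for the myeloid factor PU.1 searched on both strands, was present in Ctsc and Ctss, against 3.20%. These motifs were chosen after the sequences had been read, and a match is a description of letters and not a site. The promoters of Ctsd and Ctsa, the aspartic protease and the carboxypeptidase, and that of Ctss, which rose with MHC class II in BAM-like cells below, are shown 5′ to 3′ on the strand of the gene. Capitals mark CACGTG in Ctsd (chr7:142387778-142388077, minus strand) and Ctsa (chr2:164833523-164833822, plus strand), and the interferon core followed by the reverse complement of GAGGAAGT in Ctss (chr3:95526536-95526835, plus strand).
Ctsd: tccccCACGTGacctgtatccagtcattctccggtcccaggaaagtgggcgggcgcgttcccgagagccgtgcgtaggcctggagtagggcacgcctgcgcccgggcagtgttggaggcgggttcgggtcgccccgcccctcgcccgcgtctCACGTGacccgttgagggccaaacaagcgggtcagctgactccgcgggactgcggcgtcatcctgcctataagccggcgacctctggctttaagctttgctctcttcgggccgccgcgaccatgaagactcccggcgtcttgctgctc
Ctsa: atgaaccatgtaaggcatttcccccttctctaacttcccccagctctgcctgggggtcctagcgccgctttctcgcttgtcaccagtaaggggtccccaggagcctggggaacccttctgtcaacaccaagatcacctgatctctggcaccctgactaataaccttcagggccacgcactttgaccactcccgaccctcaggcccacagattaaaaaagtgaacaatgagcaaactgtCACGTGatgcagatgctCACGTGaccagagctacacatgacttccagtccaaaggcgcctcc
Ctss: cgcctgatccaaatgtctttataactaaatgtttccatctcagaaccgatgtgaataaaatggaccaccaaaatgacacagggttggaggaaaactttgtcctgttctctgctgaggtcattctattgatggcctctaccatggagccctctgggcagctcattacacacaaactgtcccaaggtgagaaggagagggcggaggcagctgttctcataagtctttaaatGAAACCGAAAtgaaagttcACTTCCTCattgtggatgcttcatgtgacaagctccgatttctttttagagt
The matches began 245 and 98 bases before the start site in Ctsd, 12 bases before it and 5 bases after it in Ctsa, and 21 and 2 bases before it in Ctss.

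Cst3 was the most abundant transcript of microglia-like cells in every library. Its level was 56006 CPM (its UMIs after every sum of cells had been scaled to 1 common total) in hCD33m, 49956 in hCD33M and 55639 in Control, and the 10 genes together took 7.73%, 6.97% and 7.62% of all UMIs. CPM here count captured 3′ ends and were not scaled to transcript length. Of the proteases, Ctsd ranked 7 among all genes in each library, with 8314 CPM in hCD33m, 6659 in hCD33M and 7624 in Control. Ctss, an elastinolytic cysteine protease that stays active at neutral pH, ranked 10, with 5789, 6133 and 5759 CPM. These 3 genes lay far above the others.

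The exopeptidases and the broad endopeptidases followed. Ctsz, a carboxypeptidase, stood at 1841 CPM in hCD33m, 1922 in hCD33M and 1901 in Control. Ctsb, both an endopeptidase and a dipeptidyl carboxypeptidase, stood at 1583, 1559 and 1631 CPM, and Ctsl, a potent endopeptidase, at 1499, 1336 and 1481 CPM. Ctsh, an aminopeptidase, had 902, 908 and 877 CPM. The lowest were Ctsa, which also protects β-galactosidase and neuraminidase in the lysosome (726, 653 and 676 CPM), Ctsc, a dipeptidyl peptidase that activates granule serine proteases (384, 347 and 352 CPM), and Ctsf (235, 226 and 252 CPM). No 2 neighbours in this order overlapped over the 3 libraries, the closest being Ctsb, whose lowest library was 1559 CPM, and Ctsl, whose highest was 1499 CPM.

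**Figure D1:**
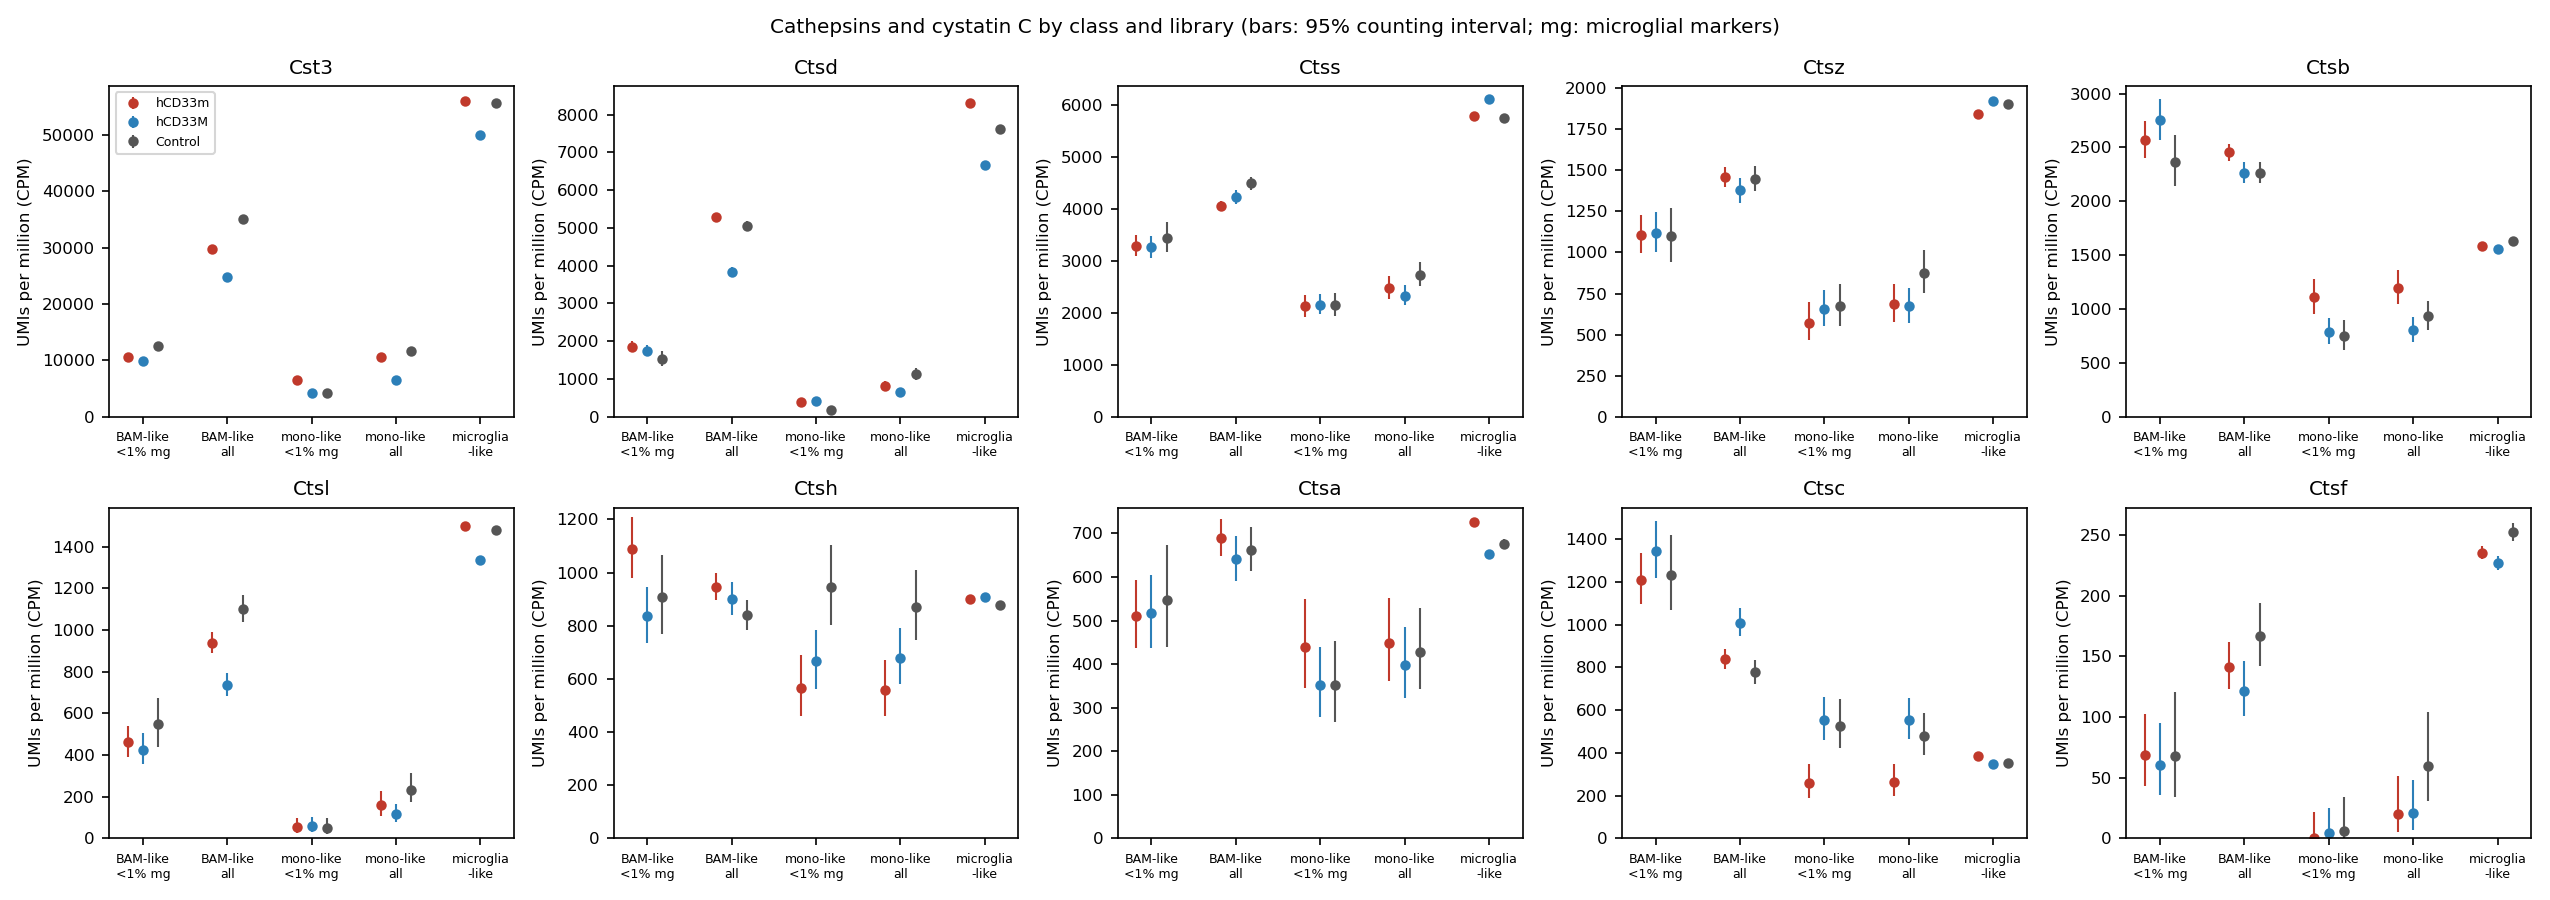
Level of each gene, 1 panel each on a linear axis from 0 in CPM, in BAM-like and monocyte-like cells (those under 1% of microglial markers, "<1% mg", and all) and in microglia-like cells. Each point is 1 library (hCD33m, hCD33M or Control) with its 95% counting interval. In microglia-like cells Cst3 averages 53867 CPM and Ctsf 238 CPM, and Ctsc has the largest fold of BAM-like over microglia-like level.

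Detection was also followed cell by cell. After each microglia-like cell had been thinned to 2000 UMIs, with 24, 9 and 7 shallower cells left out, Cst3 and Ctss were detected in 100% of cells to 3 digits, and Cst3 averaged 111 UMIs per cell in hCD33m, 99.4 in hCD33M and 111 in Control. Ctsz was detected in 95.3%, 95.7% and 96.6% of cells in that order, Ctsb in 92.7%, 93.1% and 93.1%, and Ctsl in 93.0%, 89.7% and 92.1%. Ctsc was detected in 51.8%, 49.6% and 50.7% and Ctsf in 36.8%, 35.5% and 38.4%, or without thinning in 84.2%, 80.6% and 83.0% and in 69.8%, 67.8% and 74.4%. No brain myeloid type is known to lack all of these genes, but in monocyte-like cells under 1% of microglial markers, thinned alike, Ctsf was detected in none of 26, 22 and 17 cells (upper limits of 13.2%, 15.4% and 19.5%) and Ctsl in 11.5%, 4.55% and 5.88% of them. The variance over the mean was 11.2, 9.68 and 11.2 for Cst3 and 1.03, 1.06 and 1.05 for Ctsf, where a value of 1 is what counting alone gives. This ratio rises with the mean, so it does not compare the genes. Across single cells the members were only loosely related, which in such sparse counts is given as a description of cells that share a library. The highest Spearman correlations were between Ctss and Cst3 (0.26 to 0.31 over the 3 libraries of 4814, 4480 and 2946 cells), Ctsd and Cst3 (0.18 to 0.20) and Ctsb and Ctsd (0.15 to 0.21). The lowest was between Ctsc and Cst3 (-0.09 to -0.04), and Cst3 also correlated with the UMI total of the cell before thinning (0.19 to 0.22).

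None of the 10 genes differed by 1.5-fold between genotypes in microglia-like cells. For hCD33m over Control, the log2 ratios ran from -0.10 for Ctsf to 0.13 for Ctsc and Ctsd, with a median of 0.01. In that comparison 0 of 10 members passed 1.5-fold, against 1.09% of the 6764 genes that reached 20 CPM in either library, whose median was -0.00. Ctsa, at 0.10 (95% counting interval 0.07 to 0.14), was the other member above 0.1. These intervals cover counting error only, and a difference outside them is a difference between 2 libraries.

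In the hCD33M library Ctsd, Cst3, Ctsf and Ctsl were slightly lower than in Control. For hCD33M over Control, the log2 ratio was -0.20 (-0.21 to -0.19) for Ctsd, -0.16 for Cst3 (-0.16 to -0.15) and Ctsf (-0.21 to -0.10), and -0.15 (-0.17 to -0.13) for Ctsl, while Ctss was at 0.09 (0.08 to 0.10). The median of the members was -0.06, 3 of 10 were above 0 and 0 of 10 passed 1.5-fold, against 0.503% of 6753 genes and a median of 0.01 over them.

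Between the isoforms, hCD33m over hCD33M, the member furthest apart was Ctsd at 0.32 (0.31 to 0.33). Ctsl followed at 0.17, Cst3 at 0.16, and Ctsa and Ctsc at 0.15, while Ctss was at -0.08. The median was 0.10, with 0 of 10 past 1.5-fold, against 0.83% of 6748 genes and a median of -0.02. The comparisons share libraries, so the low Ctsd and Cst3 of the hCD33M library enters both.

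**Figure D2:**
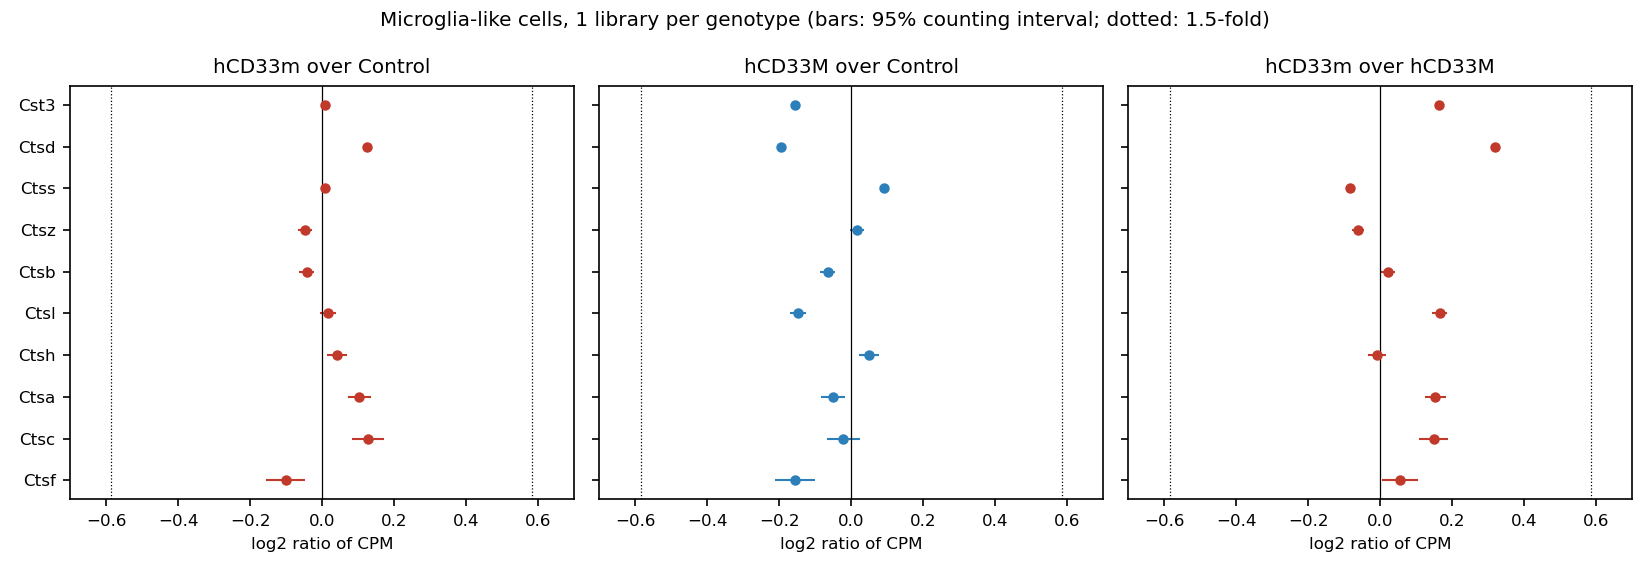
Log2 ratio of each gene between genotypes in microglia-like cells, for hCD33m over Control, hCD33M over Control and hCD33m over hCD33M, with bars for 95% counting intervals and dotted lines at 1.5-fold. All points lie within the dotted lines, the furthest from 0 being Ctsd at 0.32 for hCD33m over hCD33M.

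Of the other genes of the pathway, Cst7 differed most between genotypes. Cst7 encodes cystatin F, an inhibitor that reaches the endolysosome and acts on cathepsin C among others. It had 23.9 CPM in hCD33m, 35.0 in hCD33M and 13.2 in Control microglia-like cells, a log2 ratio of 0.86 for hCD33m over Control and 1.41 for hCD33M over Control. The Cst7-led cluster described below, part of this class, held 144 hCD33m, 170 hCD33M and 0 Control cells. Cd74 had 25.2 CPM in hCD33m, 34.8 in hCD33M and 35.2 in Control, a log2 ratio of -0.48 (-0.63 to -0.33) for hCD33m over Control. Of the 5 other proteases, 4 inhibitors, 9 sorting genes and 4 partners with at least 5 CPM, Cst7 alone passed 1.5-fold in either comparison. Among the other proteases the ratios to Control lay between 0.07 (Lgmn) and 0.18 (Dpp7) in hCD33m and between -0.01 (Lgmn) and 0.15 (Scpep1) in hCD33M.

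BAM-like cells carried more Ctsc and Ctsb and less of most other members than microglia-like cells. Each library held both classes, so the summed UMIs were compared over 3 libraries with edgeR's quasi-likelihood test, the library as a block and Benjamini-Hochberg adjustment over all genes. The classes were found in the same cells, although without the 10 genes. Ctsc had 838 CPM in hCD33m, 1009 in hCD33M and 777 in Control BAM-like cells, against 384, 347 and 352 CPM in microglia-like cells, and rose by a log2 fold change of 1.37 ± 0.11 (SE, adjusted p = 6.1e-14). Ctsb had 2454, 2264 and 2267 CPM, against 1583, 1559 and 1631 CPM, and rose by 0.66 ± 0.09 (adjusted p = 2.5e-07). For both genes every BAM-like value lay above every microglia-like value, although how many of all genes separate so is not given here. In all, 2 of 10 members were called higher and 6 lower, against 13.2% higher and 8.99% lower of the 9097 genes tested.

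Cst3 led the members that fell. It had 29708 CPM in hCD33m, 24725 in hCD33M and 35130 in Control BAM-like cells, against 56006, 49956 and 55639 CPM in microglia-like cells, a log2 fold change of -0.76 ± 0.13 (adjusted p = 8.1e-06). Ctsf (-0.63), Ctsd (-0.58) and Ctsl (-0.55) fell to a similar degree, and Ctss (-0.36) and Ctsz (-0.29) by less. Ctsh (0.11, adjusted p = 0.48) and Ctsa (0.06, adjusted p = 0.66) did not pass the test. The call of Ctsz was lost when any 1 library was left out (adjusted p of 0.074 without Control, 0.063 without hCD33M and 0.067 without hCD33m), and that of Ctss without hCD33m (adjusted p = 0.14). Without the library as a block both were lost (adjusted p = 0.13 for Ctsz and 0.056 for Ctss).

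The differences were larger in BAM-like cells with under 1% of microglial markers. These cells were picked for low microglial transcripts after the data had been seen. Cst3 follows such markers over the clusters (0.98 with Sparc, 1 of the 11 markers). The size of its fall is therefore not independent of the choice of cells, which the p-values do not take into account. The same limit holds for monocyte-like cells under 1% below. There Cst3 stood at 10551 CPM in hCD33m, 9984 in hCD33M and 12626 in Control, Ctsd at 1859, 1747 and 1541 CPM, and Ctsl at 460, 426 and 546 CPM. Their log2 fold changes over microglia-like cells were -1.94 ± 0.11, -1.80 ± 0.14 and -1.26 ± 0.13 (adjusted p = 5.5e-15, 2.4e-12 and 3.8e-09). These cells held 3.84-fold less Cst3 than microglia-like cells, against 1.69-fold for all BAM-like cells. Ctsc, at 1209, 1344 and 1234 CPM, was higher by 2.15 ± 0.16, and Ctsb, at 2569, 2759 and 2369 CPM, by 1.03 ± 0.12 (adjusted p = 1.3e-12 and 3.0e-08). Of the 10 members 3 were called higher, now with Ctsh at 0.43, and 6 lower, against 20.9% and 17.2% of 5547 genes. The Ctsh call was lost with DESeq2 (adjusted p = 0.092) and when any 1 library was left out (adjusted p = 0.071 without Control, 0.10 without hCD33M and 0.10 without hCD33m). Cst3 kept between 18.8% (hCD33m) and 22.7% (Control) of its microglia-like level, above the median of the microglial markers given earlier, and how much of this remainder was microglial RNA was not tested.

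Between genotypes, Cst3 in all BAM-like cells moved with the microglial markers. Its levels of 29708, 24725 and 35130 CPM in hCD33m, hCD33M and Control lay beside microglial marker levels of 19361, 15472 and 22161 CPM in the same cells. In the cells under 1%, where the markers stood at 4589, 4928 and 5076 CPM, the log2 ratio of Cst3 to Control was -0.26 in hCD33m and -0.34 in hCD33M. Ctsd, at 5284, 3827 and 5049 CPM over all BAM-like cells, was highest in hCD33m and lowest in Control in the cells under 1%. These are sums of 54, 52 and 31 cells in 1 library each.

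Monocyte-like cells had much less Ctsd, Ctsl, Ctsf and Cst3 than microglia-like cells. Ctsd fell furthest, with 804 CPM in hCD33m, 651 in hCD33M and 1126 in Control monocyte-like cells, against 8314, 6659 and 7624 CPM in microglia-like cells (log2 fold change -2.84 ± 0.13, adjusted p = 1.3e-21). Ctsl had 160, 115 and 234 CPM, against 1499, 1336 and 1481 CPM (-2.81 ± 0.15, adjusted p = 5.6e-19), and Cst3 had 10685, 6506 and 11679 CPM, against 56006, 49956 and 55639 CPM (-2.22 ± 0.13, adjusted p = 1.5e-17). No monocyte-like library reached any microglia-like library for these 3 genes, and the share of all genes that separate in this way is not given here. Ctsf also fell (-2.56), as did Ctsz (-1.05), Ctss (-0.93), Ctsb (-0.41) and Ctsa (-0.39), while Ctsh, at -0.05 (adjusted p = 0.78), did not pass the test. Over the members 1 was called higher and 8 lower, against 21.7% higher and 20.9% lower of 9097 genes. Without hCD33m the call of Ctsa was lost (adjusted p = 0.056).

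The member called higher was Ctsc, and its libraries did not run the same way. It had 265 CPM in hCD33m, 553 in hCD33M and 478 in Control monocyte-like cells, against 384, 347 and 352 CPM in microglia-like cells, so that hCD33m was lower and the others higher. The hCD33m value rests on 53 UMIs. The fitted log2 fold change was 0.56 ± 0.15 (adjusted p = 0.0023), with the call lost without Control (adjusted p = 0.078), without hCD33M (adjusted p = 0.20) and when sums were scaled by their totals alone (adjusted p = 0.13).

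With the few monocyte-like cells of higher microglial marker share removed, Ctsd, Ctsl, Ctsf and Cst3 were lower still and Ctsf was nearly absent. Over 26, 22 and 17 cells of hCD33m, hCD33M and Control, Ctsf was seen with 0, 1 and 1 UMIs, and a count of 0 allows up to 3. Ctsl had 9, 13 and 8 UMIs, or 52.0, 58.6 and 48.4 CPM, and Ctsd 393, 414 and 188 CPM. Ctss, at 2127, 2162 and 2155 CPM, and Ctsh, at 566, 667 and 944 CPM, remained well represented. The calls over microglia-like cells again numbered 1 higher (Ctsc, lost without Control or without hCD33M at adjusted p = 0.17 and 0.39) and 8 lower, against 27.5% and 27.2% of 5547 genes, with Cst3 at -3.18 ± 0.12 and Ctsd at -4.23 ± 0.16.

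BAM-like cells lay above monocyte-like cells for 9 of 10 members, with 0 lower, against 17.3% higher and 17.2% lower of 9097 genes. Ctsd and Ctsl each differed by a log2 fold change of 2.27 (SE 0.13 and 0.16), Ctsf by 1.93, Cst3 by 1.46, Ctsb by 1.07 and Ctsc by 0.81, and Ctsh was at 0.16 (adjusted p = 0.35; called without Control, at adjusted p = 0.040). Among cells under 1% all 10 were called higher, against 15.7% of genes called higher and 14.9% lower. There Ctsl, at 460, 426 and 546 CPM in BAM-like cells of hCD33m, hCD33M and Control, against 52.0, 58.6 and 48.4 CPM in monocyte-like cells, was 9.22-fold higher. The calls of Ctsh (without hCD33M or without hCD33m, adjusted p = 0.14 and 0.41) and Ctsa (without Control or without hCD33M, adjusted p = 0.079 and 0.10) were lost in that set, that of Ctsh also with DESeq2 (adjusted p = 0.095) and with totals alone (adjusted p = 0.055).

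The scaling factors mattered in these class comparisons. Main values used TMM factors, and with totals alone the median of all genes moved to -0.12 for BAM-like over microglia-like cells, -0.42 for monocyte-like over microglia-like cells and 0.31 for BAM-like over monocyte-like cells, against -0.02, -0.11 and 0.11. The calls over all genes then split into 955 higher and 1469 lower in place of 1198 and 818, into 1486 and 2984 in place of 1974 and 1898, and into 2135 and 1231 in place of 1573 and 1564. Of the members, 2 were then higher and 6 lower, 0 higher and 9 lower (Ctsh among them), and 10 higher and 0 lower. For cells under 1% the calls over all genes split into 757 higher and 2137 lower in place of 1161 and 956 in the BAM-like comparison with microglia-like cells, and into 1171 and 2187 in place of 1524 and 1510 in the monocyte-like one, where the members were 2 higher and 7 lower, and 0 higher and 9 lower.

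Related genes separated the classes as well. Napsa, an aspartic protease, had 709 CPM in hCD33m, 532 in hCD33M and 533 in Control monocyte-like cells, against 2, 1 and 0 UMIs in microglia-like cells. Legumain (Lgmn), which processes cathepsins to their mature forms, had 464, 413 and 553 CPM in monocyte-like cells, against 3313, 3132 and 3160 CPM in microglia-like cells, a log2 fold change of -2.45. Psap, the precursor of the saposins, was higher in monocyte-like cells by 1.23, and Cstb, a cytosolic cystatin, by 1.22. Lowest of their lists there were the protease Dpp7 (-3.75) and the inhibitor Serpinb9 (-9.76). In BAM-like cells Cstb was higher by 0.69, Serpinb6a, a serpin, by 2.56 and the carboxypeptidase Scpep1 by 0.91, while Lgmn was lower by 0.40 and the sorting receptor Sort1 by 0.49. Of the 6 other proteases tested, 3 were called higher and 2 lower in BAM-like cells and 1 higher and 4 lower in monocyte-like cells, of the 4 inhibitors 2 and 0, and 2 and 1, and of the 9 genes of enzyme sorting, activation and transcription 1 and 1, and 2 and 4. The median log2 fold change of the other proteases was 0.31 in BAM-like and -1.34 in monocyte-like cells, against -0.02 and -0.11 over all genes.

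Within BAM-like cells, Ctss and the degradative cathepsins ran in opposite directions with MHC class II. Cells under 1% of microglial markers and of at least 2000 UMIs were divided at 3 UMIs of H2-Aa, H2-Ab1, H2-Eb1 and Cd74 together after thinning, which gives 2 ranges of counts and not 2 cell types. Of 128 such cells, 70 were at or above 3, 4 had 2 or 3 UMIs and 47 had none. Ctss had 3872 CPM in hCD33m, 3964 in hCD33M and 4473 in Control cells at or above 3, against 2605, 2292 and 2238 CPM in those below, log2 ratios of 0.57 in hCD33m and 0.79 in hCD33M and a larger one in Control. Every Ctss value at or above 3 lay above every value below it, and the share of all genes that do so is not given here.

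Ctsl ran the other way, with 277 CPM in hCD33m, 212 in hCD33M and 183 in Control cells at or above 3, against 686, 729 and 1027 CPM in those below (-1.31, -1.78 and -2.49). Ctsd had 1337, 1213 and 525 CPM, against 2465, 2502 and 2857 CPM, and Ctsb had 1981, 2128 and 1084 CPM, against 3205, 3652 and 4025 CPM. Ctsa was lower by 0.57, 0.92 and 1.28 on the log2 scale and Ctsc by 0.16, 0.54 and 0.57. Cst3 and Ctsz differed by less than 0.5 on the log2 scale in every library, and Ctsf had no common direction. Ctsh, like Ctss, was above 0 in each library (0.21 in hCD33m, 0.499 in hCD33M and 0.03 in Control). Its counting interval was clear of 0 in hCD33M alone (0.11 to 0.90). Over all BAM-like cells the log2 ratios of Ctss (0.13, 0.23 and 0.21) and Ctsl (-0.43, -0.97 and -0.89) were smaller. There the median share of microglial markers also differed, at 0.79%, 0.87% and 1.41% in cells at or above 3. Below 3 it was 1.94%, 1.17% and 2.32%, and its part in these ratios was not tested. No test was run on any of these sums, which held 12 to 30 cells each in the set under 1%.

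The 2 sets differed in other markers too. The 10 BAM markers summed to 5504 CPM in hCD33m, 5074 in hCD33M and 2431 in Control cells at or above 3, against 15890, 18658 and 16380 CPM below. Ccr2, a monocyte chemokine receptor, had 860, 629 and 1358 CPM, against 87.0, 32.4 and 0 CPM, while Ly6c2, Plac8, Chil3 and Vcan had no UMI in either set. Of the dendritic cell markers, Xcr1 had none and Flt3 at most 11.4 CPM, and Cd209a had 0, 120 and 308 CPM at or above 3, against 113, 713 and 436 CPM below. Microglial markers were alike, at 4449, 5240 and 5215 CPM, against 4817, 4486 and 4954 CPM. The part of these marker differences in the cathepsin values was not tested.

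**Figure D3:**
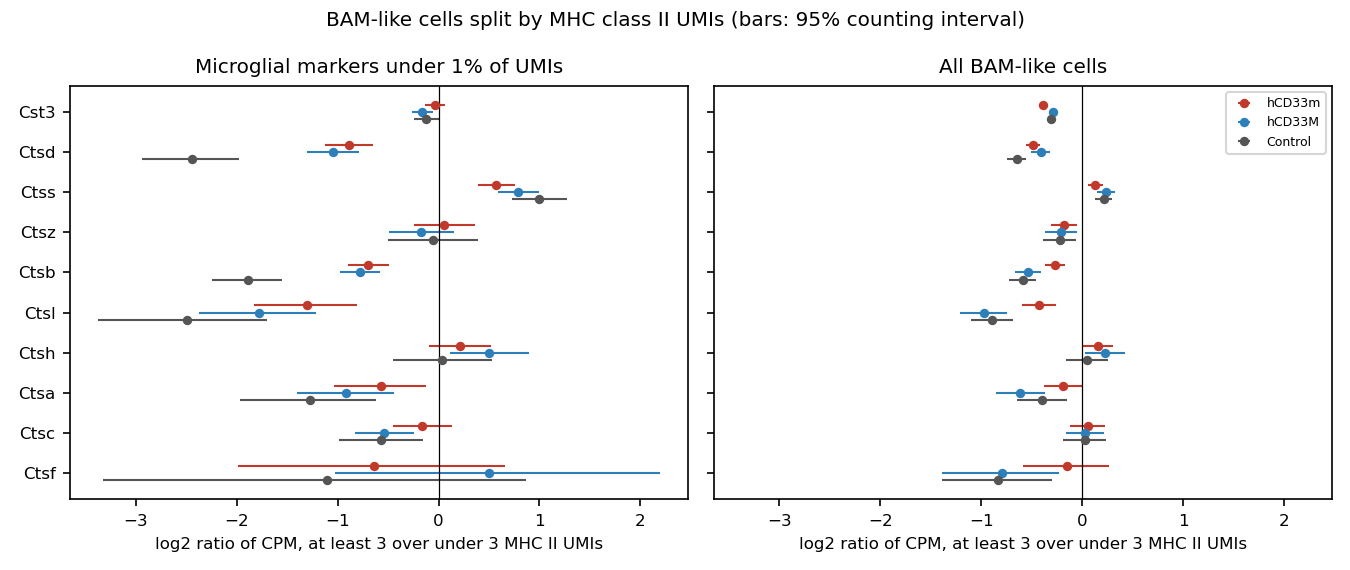
Log2 ratio of CPM for each gene between BAM-like cells with at least 3 and under 3 UMIs of MHC class II genes and Cd74, for cells under 1% of microglial markers (left) and all BAM-like cells (right). Each point is 1 library with its 95% counting interval. In both panels Ctss lies above 0 and Ctsl, Ctsd and Ctsb below 0 in all 3 libraries.

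Activation states within microglia-like cells were compared in the same way, each against all other microglia-like cells of its library. A Cst7-led cluster, with Vcam1 and Cdkn1a among its leading genes, held 144 hCD33m and 170 hCD33M cells and no Control cell, so its test rests on 2 libraries. Ctsz rose most, to 3469 CPM in hCD33m and 3785 in hCD33M, against 1779 and 1845 CPM in other microglia (log2 fold change 1.08 ± 0.06, adjusted p = 2.9e-60). Ctss had 8845 and 9731 CPM, against 5672 and 5985 CPM (0.75 ± 0.06, adjusted p = 5.7e-30), and Ctsl had 2190 and 2136 CPM, against 1473 and 1304 CPM (0.72 ± 0.06, adjusted p = 9.8e-27). In both libraries each of these genes was higher in the Cst7-led cells.

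Ctsh (0.72), Ctsa (0.58), Ctsb (0.52) and Ctsf (0.33) also rose in Cst7-led cells. Ctsc, a known target of cystatin F, had 266 and 272 CPM, against 389 and 350 CPM (-0.38 ± 0.08, adjusted p = 7.0e-05), and Ctsd had 5874 and 5108 CPM, against 8407 and 6723 CPM (-0.37 ± 0.06, adjusted p = 1.4e-07). Cst3, at -0.17, did not pass the test (adjusted p = 0.062). The 7 members called higher and 2 lower stood against 7.17% higher and 7.13% lower of 12014 genes. Of the partners of these proteases 5 of 6 were called higher and 0 lower, among them Cd74 (1.87), the β-galactosidase Glb1 (1.05) and the neuraminidase Neu1 (0.63). Of the 6 other proteases tested 3 were called higher and 1 lower. Ctse stood highest (3.25, adjusted p = 0.0018) and Ctso lowest (-0.51, adjusted p = 0.00036). Dpp7, a dipeptidyl peptidase, rose by 1.88 and Scpep1 by 0.56. The median mitochondrial share was 4.18% in hCD33m and 5.03% in hCD33M Cst7-led cells, against 1.80% and 2.08% in the others, and its part in these values was not tested. Under a cell filter of at most 5% of mitochondrial UMIs and at least 1000 genes no Cst7-led cluster was formed. With totals alone the calls over all genes split into 668 higher and 1208 lower in place of 861 and 856, and of the members 7 were higher and 3 lower, with Cst3 added. Without the library as a block 6 members were called higher and 0 lower (adjusted p = 0.053 for Ctsc, 0.16 for Ctsd and 0.060 for Ctsf).

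A chemokine-led cluster, with Ccl4, Ccl3 and Ccl2 among its leading genes, was present in every library, with 83 hCD33m, 68 hCD33M and 63 Control cells. Ctsb rose most, to 3805, 3873 and 3685 CPM, against 1533, 1515 and 1577 CPM in other microglia (log2 fold change 1.32 ± 0.04, adjusted p = 1.8e-77). Ctsz had 3529, 3556 and 3285 CPM, against 1804, 1891 and 1865 CPM (0.93 ± 0.04, adjusted p = 4.9e-56), and Ctsd had 11826, 11071 and 11468 CPM, against 8236, 6576 and 7524 CPM (0.65 ± 0.03, adjusted p = 2.1e-44). Each of these genes was higher in chemokine-led cells of all 3 libraries, and the values of the 2 sets of cells did not overlap. The share of all genes without overlap is not given here.

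Ctsc (0.45), Ctsa (0.40) and Ctsl (0.29) also rose in chemokine-led cells, and Ctsf (-0.42) and Cst3 (-0.11) fell, while Ctsh (-0.14, adjusted p = 0.14) and Ctss (0.04, adjusted p = 0.48) did not pass the test. The 6 members called higher and 2 lower stood against 10.5% higher and 9.64% lower of 11531 genes. Without hCD33m the calls of Cst3 (adjusted p = 0.28) and Ctsf (adjusted p = 0.067) were lost, and that of Cst3 also with DESeq2 (adjusted p = 0.26), with median-of-ratios factors (adjusted p = 0.098), without the block (adjusted p = 0.55) and after thinning (adjusted p = 0.10). The median mitochondrial share was 2.70%, 2.81% and 2.28% in chemokine-led cells of hCD33m, hCD33M and Control, against 1.82%, 2.10% and 1.88% in the others, and its part was not tested. Among inhibitors, Cstb rose by 2.24 and Cst7 by 2.35, and among partners Cd74 by 2.48. Of the 10 sorting genes 5 were called higher, with Igf2r the highest (5.12), and 1, Sort1, lower (-0.60). At a clustering resolution of 0.3 the cluster with these chemokines held 145, 461 and 293 cells, also took in proliferating cells, and no member was called.

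Set side by side, Ctsd was lower in Cst7-led cells and higher in chemokine-led cells, and Ctss was higher in Cst7-led cells and near 0 in chemokine-led cells, while Ctsz and Ctsb were higher in both. These contrasts between the states were not tested.

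An interferon-led cluster, with Ifit3 and Isg15 among its leading genes, held 154 hCD33m, 100 hCD33M and 53 Control cells and hardly differed for the members. Ctss had 6156, 6821 and 5765 CPM, against 5775, 6113 and 5759 CPM (log2 fold change 0.11 ± 0.03, adjusted p = 0.016), and Ctsc had 416, 384 and 439 CPM, against 383, 345 and 350 CPM (0.20 ± 0.06, adjusted p = 0.040). The Control values of Ctss were almost equal. These 2 members called higher and 0 lower stood against 2.16% higher and 0.226% lower of 11522 genes. With DESeq2 neither was called (adjusted p = 0.27 and 0.38), both were lost without hCD33M (adjusted p = 0.79 and 0.25) or without hCD33m (adjusted p = 0.64 and 0.16), and Ctsc was lost without Control (adjusted p = 0.43). In the other lists none of the 5 proteases, 4 inhibitors, 9 sorting genes and 6 partners tested was called.

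A Tsix-led cluster was the largest of these states, with 2231 hCD33m, 1095 hCD33M and 713 Control cells. Its leading genes were Tsix, Hist1h2ac, Ddit4 and Xist, with Fosb further down. Tsix and Xist follow the sex of the mice, which differs between hCD33m and the others. A state needed at least 3 genes of its list among the top 10 of a cluster. Tsix, Xist, Ddit4 and Fosb matched here, so the state call and the name rest on the sex genes. The cluster also held cells of the male hCD33M and Control libraries, and whether it is an activation state was not tested. Tsix, Xist and Fosb were themselves left out of the clustering. Another cluster with Rgs1, Dusp1 and Fosb among its leading genes (518, 310 and 206 cells) stayed with the other microglia. The median mitochondrial share lay between 1.40% and 1.63% in Tsix-led cells, against 2.01% to 2.27% in the others, and the median depth 4885, 4602 and 5027 UMIs, against 5770, 5429.5 and 5822, and their part in the values was not tested. Members were modestly lower in the Tsix-led cluster than in all other microglia-like cells pooled, which include the Cst7-led and chemokine-led cells. By means over the libraries, Ctsc alone of the members was not below the largest cluster (343 against 335 CPM). Cst3, at 52703 CPM, was below that cluster (59158 CPM) and above every other microglia-like cluster. Ctsb had 1360 CPM in hCD33m, 1329 in hCD33M and 1433 in Control cells of the cluster, against 1718, 1614 and 1677 CPM in other microglia (log2 fold change -0.34 ± 0.03, adjusted p = 2.8e-32). Ctss had 5251, 5243 and 5036 CPM, against 6113, 6347 and 5929 CPM (-0.31 ± 0.03, adjusted p = 7.3e-29), and Ctsz fell by 0.28, Ctsl and Ctsh by 0.21, Ctsa and Ctsc by 0.16 and Cst3 by 0.10. Ctsd (-0.05, adjusted p = 0.16) and Ctsf (-0.06, adjusted p = 0.28) did not pass the test, although Ctsd did without hCD33m (adjusted p = 0.012).

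The 8 members called lower and 0 higher in Tsix-led cells stood against 9.67% lower and 6.98% higher of 11842 genes. Cst3 did not run the same way in each library, with 56319 CPM in hCD33m, 48384 in hCD33M and 53407 in Control cells of the cluster, against 55818, 50334 and 56163 CPM, and its call was lost without Control (adjusted p = 0.29) or without hCD33M (adjusted p = 0.19). Without the library as a block 3 members were called lower, Ctsb, Ctss and Ctsz, each of which was lower in all 3 libraries. Of the partners 3 of 6 were called lower and 0 higher, among them Cd74 (-1.79), of the 4 inhibitors 2, Cst7 (-2.51) and Cstb (-0.38), and of the 5 other proteases 3, with Dpp7 at -0.65. With totals alone 7 members were called lower, and the calls over all genes split into 1960 higher and 801 lower in place of 827 and 1145.

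**Figure D4:**
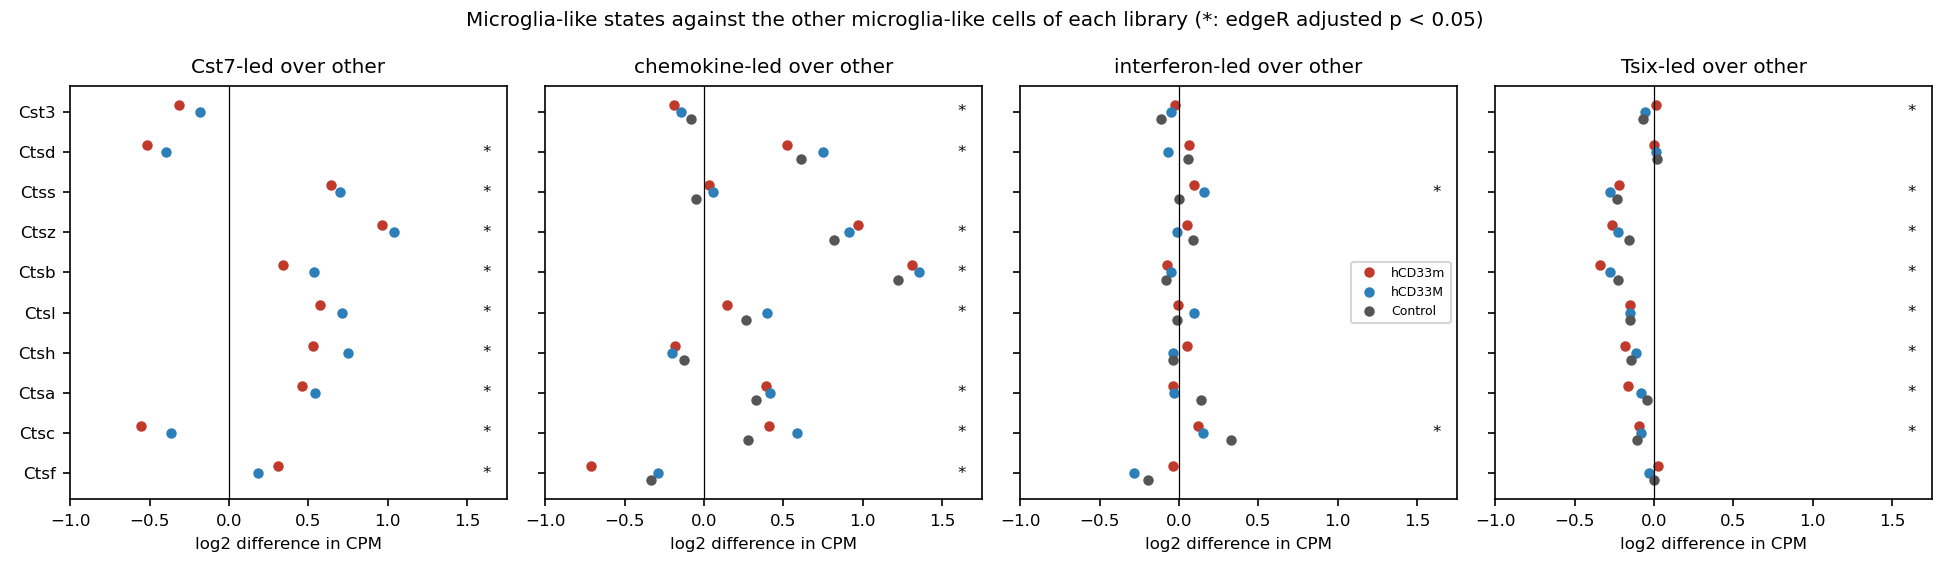
Log2 difference in CPM of each gene between a state and the other microglia-like cells of the same library, with 1 point for each library and no error bars. A star marks an edgeR adjusted p below 0.05 in the fit, whose TMM-scaled values differ slightly from these. Ctsb in chemokine-led cells (1.22 to 1.35) stands furthest above 0, Ctsz lies between 0.82 and 1.04 in Cst7-led and chemokine-led cells, and no Control cell is in the Cst7-led panel.

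Each member was also set beside the genes whose level followed it most closely, by Pearson correlation of log2(CPM + 1) over 29 sums of clusters and libraries, which share libraries and cell types. Ctsl was followed most closely by Trem2 (0.99), a microglial lipid receptor, and by the complement gene C1qb (0.98), and Ctsd by Basp1 (0.98). Cd81 (0.98) and Sparc (0.98) were among the 3 genes closest to Cst3. Ctsz and Ctsa shared Creg1, a lysosomal glycoprotein, as their closest gene (0.95 and 0.94), and Ctsb was closest to Cd83 (0.92), Ctss to the MHC class II chaperone subunit H2-Oa (0.90), Ctsc to the macrophage chemokine Pf4 (0.83), Ctsf to Ppcdc (0.98) and Ctsh to the lysosomal mannosidase Man2b1 (0.80). Over the 23 sums of microglia-like clusters alone, Ctsh and Ctss were each other's closest gene (0.93), Ctsz was closest to Cyba (0.98) and Ctsb to the tetraspanin Cd63 (0.97), while for Cst3 no gene passed 0.73 (Arpc3). Ctsl was then closest to Timp2 (0.92), Ctsd to Aldoa (0.90) and Ctsf to Tef (0.82). Trem2 was not among the 3 genes closest to Ctsl there, nor Basp1 among those closest to Ctsd.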

How the data were processed

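The 3 libraries were deposited as gene by cell tables of UMI counts, 1 for each genotype, which the authors made with Cell Ranger and the mouse genome mm10 and had not normalized (32572995, 28387611 and 21529542 UMIs for hCD33m, hCD33M and Control). The authors also name Seurat in their processing notes. The genes described here and the lists set beside them were chosen with earlier results of these data known. Cells with 200 to 8000 genes, at least 200 UMIs and at most 10% mitochondrial UMIs were kept, slightly more than the study gives. Doublets were not called. After log normalization, 2000 variable genes without the 10 members, 15 principal components and 20 neighbours (scikit-learn 1.9.0) were used for Leiden clustering at a resolution of 0.5 (igraph 0.11.9). Sex genes such as Xist and Tsix, and early response genes such as Fos, Fosb and Dusp1, were also kept out of the variable genes. Clusters were named from marker lists, and microglial states by their leading genes, so cluster names were rebuilt here and are not the authors'.

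UMIs were summed for each class or state and library. Genotypes, with 1 library each, were compared without a test, as log2 ratios of CPM with exact 95% binomial intervals that cover counting error only. Classes and states were compared with edgeR 4.0.16 (TMM factors, filterByExpr, quasi-likelihood test) with the library as a block, since both sums of a pair come from the same library, with Benjamini-Hochberg adjustment over all genes and a threshold of 0.05. These p-values use the spread of each difference between libraries of different genotype, 3 in most fits and 2 for Cst7-led cells. With so few libraries edgeR borrows information on spread from all genes, so the smallest p-values lean largely on that borrowing. DESeq2 1.42.0, scaling by totals alone, no count filter, no block, other clusterings and cell filters, thinning to 2000 UMIs and leaving out each library were the alternatives. The set of cells under 1% of microglial markers and its scaling alternative were chosen after seeing the data. Tested on simulated data, the procedure recovered 91.0% of 2-fold and 31.3% of 1.5-fold changes for BAM-like over microglia-like cells (8819 genes), 70.1% and 17.9% for Cst7-led microglia (12000 genes) and 86.6% and 20.9% for interferon-led microglia (11477 genes). The simulation gave every gene the same spread and drew the changed genes from all those above 20 CPM. These rates therefore do not give the sensitivity for the members.

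All 10 members were named in every comparison. Of each other list, the genes with the highest or the lowest value were named in many comparisons but not in all. Other genes of the lists were named beside them, and of the genes most like a member up to 3. Cstb, Scpep1, Glb1, and Lgmn in monocyte-like cells, were named after their values had been seen. A gene among those closest to Cst3 is not reported here.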

Additional observations from a re-analysis of the deposited data

Results flagged for a closer look

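The libraries did not run the same way for a pair of genes, and the difference between libraries was not tested in either. In Tsix-led over other microglia, Cst3 differed by 0.013 on the log2 scale in the hCD33m library (56319 against 55818 CPM) and was below 0 in the hCD33M library (48384 against 50334 CPM) and the Control library (53407 against 56163 CPM). In monocyte-like over microglia-like cells, Ctsc was at -0.54 in the hCD33m library (265 against 384 CPM) and above 0 in the hCD33M library (553 against 347 CPM) and the Control library (478 against 352 CPM). The monocyte-like sums hold 28, 23 and 19 cells and 53, 135 and 96 UMIs of Ctsc.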

How the results depend on the processing

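Among repeats of the members' class and state tests under other settings, 1022 stayed called in the same direction or stayed uncalled. Results uncalled on both sides were counted among these whatever their direction. Another 68 lost the call, 28 gained one, and 2 with a call on either side turned the direction. In interferon-led microglia, where 2 members were called, 0 were called with DESeq2, with no filter on low counts, with no replicate block, with library totals only, after thinning to 2000 UMIs or without the top 5% of cells by UMIs, 1 with the members kept among the variable genes or the stricter cell filter, and 0 to 1 with a library left out. In Tsix-led microglia the fit with no replicate block called 3 of 10 members in place of 8. Chemokine-led microglia at a clustering resolution of 0.3, with another set of cells, gave 0 calls and Ctsl at -0.066 (adjusted p = 0.74). Ctsa in BAM-like cells under 1% of microglial markers was at -0.42 (adjusted p = 0.011) over microglia-like cells with library totals only, against -0.04 (adjusted p = 0.83) in the same cells with TMM factors. The cause of these changes was not tested. No paired analysis was possible between genotypes because each has 1 library.

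Of the repeated genotype ratios of members, 205 moved by less than their counting interval and 65 by more. The number of genes past 1.5-fold moved with the minimum level, from 235 genes at 5 CPM to 36 at 50 CPM for hCD33m over Control (74 at 20 CPM), from 120 to 17 (34) for hCD33M over Control and from 165 to 33 (56) for hCD33m over hCD33M, with 0 members among them. DESeq2 called 871 genes higher and 354 lower in BAM-like over microglia-like cells (1198 and 818 with edgeR), 395 and 253 in Cst7-led (861 and 856), 835 and 482 in chemokine-led (1211 and 1112) and 188 and 410 in Tsix-led microglia (827 and 1145). Without the block, 425 and 379 genes were called in Cst7-led and 21 and 291 in Tsix-led microglia. After thinning, 4233 genes could be tested between classes, with 583 higher and 516 lower in BAM-like over microglia-like cells, 768 and 931 in monocyte-like over microglia-like cells and 665 and 525 in BAM-like over monocyte-like cells. The Cst7-led comparison was not run under the stricter filter, which formed no such cluster, nor with a library left out, which leaves 1.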

Other observations

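The 1418 cells of the unnamed clusters of low depth had Gm42418, haemoglobin genes and Ttr among their leading genes. Summed over these clusters, they were rich in Ctsd and Ctsa and poor in Cst3 and Ctsl. Ctsd had 10548 CPM in hCD33m, 8186 in hCD33M and 10570 in Control unnamed cells, against 8314, 6659 and 7624 CPM in microglia-like cells. Ctsa had 1052, 879 and 999 CPM, against 726, 653 and 676 CPM. Cst3 had 36360, 31164 and 42625 CPM, against 56006, 49956 and 55639 CPM, and Ctsl 756, 648 and 1002 CPM, against 1499, 1336 and 1481 CPM. Each of these differences between the summed cells had the same direction in all 3 libraries. The clusters were not alike in their means over the libraries. A Ttr-led cluster had less Ctsd (4428 CPM) and Ctsa (458 CPM) than microglia-like cells (7532 and 685 CPM). An Adamts1-led cluster had more Ctsl (1992 against 1439 CPM) and Cst3 near their level (50320 against 53867 CPM). Microglial markers in the summed cells stood at a median of 111% (hCD33m), 100% (hCD33M) and 109% (Control) of their microglia-like level. The unnamed cells had median mitochondrial shares of 0.586%, 0.588% and 0.901%, against 1.83%, 2.12% and 1.89% in microglia-like cells.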
